A study of Mus musculus with 24 samples.

Results

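The proteins of the mitochondrial ribosome are described here through the RNA of their nuclear genes in cultured mouse adipocyte precursors and in the adipocytes made from them. Members were all genes of the deposited table whose symbol is *Mrpl* or *Mrps* followed by a number and at most 1 further letter, without pseudogenes and without *Mrpl23*. This gave 77 of 49452 genes, of which 48 encode proteins named for the large subunit (*Mrpl*) and 29 proteins named for the small subunit (*Mrps*). They lie on 17 chromosomes, none was at 0 in any library, and all 77 passed the filter on low values in every comparison.

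The mitochondrial ribosome translates the few mRNAs of the mitochondrial genome, all of which encode subunits of the respiratory chain and the ATP synthase. Its rRNAs are made inside the organelle, whereas each of its proteins is encoded in the nucleus, made in the cytosol and imported. Brown adipocytes are rich in mitochondria and fill up with them while they differentiate, and many proteins of this ribosome have bacterial homologues while others are found only in mitochondria.

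RNA sequencing had been performed on stromal vascular fraction cells of male C57BL/6 mice aged 6 to 8 weeks, taken from interscapular brown fat (BAT) or perigonadal visceral white fat (vWAT). Cells were nucleofected with an siRNA against the long noncoding RNA *H19* (siH19) or with a non-targeting siRNA (siCtrl) and were sampled at day 0 (d0) or at day 3 (d3) of differentiation, giving 8 groups of 3 libraries each and 24 libraries in all. A single *H19* siRNA was used, no genotype besides the strain was given, and brown fat pads were pooled where cells were scarce. Indomethacin and triiodothyronine were given at induction to BAT cells, the labels and the study's methods differ on whether BAT cells also received IBMX, and the later medium held triiodothyronine for BAT and rosiglitazone for vWAT cells, so that depot and medium cannot be told apart. No source stated that the 3 libraries of a group came from separate cultures or animals, and p-values therefore measure the spread between these libraries, which may be technical.

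*H19* was lower in every siH19 library than in every siCtrl library of the same depot and day. It ranged from 83.2 to 160.4 FPKM in BAT siCtrl cells, from 2.82 to 16.9 FPKM in BAT siH19 cells, from 8.19 to 12.3 FPKM in vWAT siCtrl cells and from 0.291 to 1.76 FPKM in vWAT siH19 cells. FPKM is the fragment count scaled by transcript length and by the library's mapped fragments. Libraries held 12311 to 13125 genes of at least 1 FPKM, and the correlation between replicates over all genes was 0.974 to 0.981. Of 8 adipocyte markers 7 had a median of at least 1 FPKM, and only *Lep* (leptin) stayed below, and the summed level of this list ran from 3357 to 3646 FPKM in BAT siCtrl d0, from 34133 to 35613 FPKM in BAT siCtrl d3 and from 17763 to 18574 FPKM in vWAT siCtrl d3. Of 9 brown adipocyte markers *Ucp1* and *Cidea* had a median below 1 FPKM, *Ucp1* being 8.84 to 16.3 FPKM in BAT siCtrl d3, 2.00 to 3.63 FPKM in BAT siH19 d3 and 0 in all vWAT libraries. All 8 precursor markers were present, whereas *Ptprc*, the pan-leukocyte marker, did not exceed 1.88 FPKM. The 8 macrophage and leukocyte markers together ran from 80.6 FPKM (BAT siH19 d3) to 603.4 FPKM (vWAT siH19 d3). Of 5 mesothelial markers 4 had a median of at least 1 FPKM, without *Msln*, and the 5 endothelial markers together did not exceed 14.7 FPKM. Of the 6 skeletal muscle markers *Myf5*, *Pax7*, *Myod1* and *Ckm* were below 1 FPKM in the median library, and the other 2 were not. That list summed to between 9.66 FPKM (vWAT siCtrl d3) and 70.1 FPKM (BAT siH19 d0).

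Day 3 brown adipocytes held the most RNA of mitochondrial ribosomal proteins. The 77 members summed to 3497 ± 113 FPKM (SD, n = 3) in BAT siCtrl d0 and to 8694 ± 347 FPKM in BAT siCtrl d3, a ratio of 2.49. In vWAT siCtrl the sum went from 3828 FPKM to 5767 FPKM, a ratio of 1.51. Their share of all summed FPKM was 0.488% in BAT siCtrl d0, 1.07% in BAT siCtrl d3, 0.511% in vWAT siCtrl d0 and 0.703% in vWAT siCtrl d3.

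Both subunits moved side by side. The large subunit summed to 2171 FPKM in BAT siCtrl d0 and 5351 FPKM in BAT siCtrl d3, and the small subunit to 1325 FPKM and 3342 FPKM. The ratio of the large to the small sum stayed between 1.60 and 1.67 in the means of the 8 groups. Of the 77 members 69 had their highest group mean in BAT siCtrl d3 and 5 in BAT siH19 d3, while 49 had their lowest in BAT siH19 d0.

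**Figure D1:**
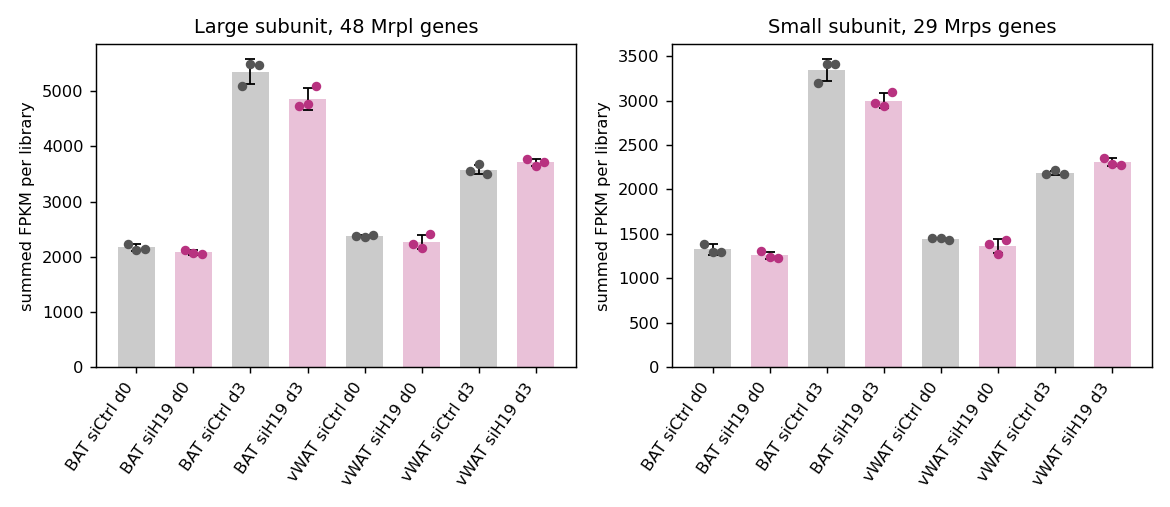
Summed FPKM per library of the 48 large subunit genes (left) and the 29 small subunit genes (right) in the 8 groups. Points are libraries, bars are means of 3 libraries starting at 0, and error bars are 1 SD. All BAT d3 libraries lie above all vWAT d3 libraries, which lie above all d0 libraries, in both panels.

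Members differed more from each other in level than the groups did. The small subunit gene *Mrps21* had the highest median over the 24 libraries (254.6 FPKM), followed by *Mrpl17* (234.7 FPKM), *Mrpl33* (190.3 FPKM) and *Mrpl20* (162.6 FPKM), the last 3 encoding large subunit proteins with bacterial homologues. *Mrps23* (122.4 FPKM) and *Mrps18c* (106.7 FPKM) were the next of the small subunit. The lowest of the large subunit were *Mrpl11* (10.5 FPKM), *Mrpl1* (10.8 FPKM), the protein of the mobile L1 stalk, and *Mrpl57* (12.5 FPKM), and the lowest of the small subunit were *Mrps31* (14.4 FPKM), *Mrps30* (18.6 FPKM) and *Mrps27* (19.5 FPKM).

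Against this, the pattern over the groups was shared. The median correlation of a member with the median of the others, over the 8 group means, was 0.99, and it exceeded 0.8 for 73 members, which is a description over points that share their libraries. The exceptions were *Mrpl33* (0.78), *Mrpl48* (0.77), *Mrpl54* (-0.14) and *Mrpl52* (-0.75), 4 proteins of the large subunit. The coefficient of variation between replicates was 5.08% in the median member and 9.88% at most, and group means spanned a range of 1.42 on the log2 scale in the median member.

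In BAT siCtrl cells, 74 members rose from d0 to d3 and 0 fell. Among all 13001 genes tested, 29.9% were higher and 35.3% lower by the same rule, which asked for a Benjamini-Hochberg adjusted p below 0.05 over all genes in limma together with a minimum of 1.3-fold. The median change was 1.33 on the log2(FPKM + 1) scale for the members and -0.10 for all genes tested. All 29 small subunit genes and 45 of 48 large subunit genes rose. In 75 members the 3 d3 libraries lay above the 3 d0 libraries, against 36.1% of all genes, and in 1 they lay below, against 43.2%. In bulk RNA, fewer cells of a type and less RNA per cell cannot be told apart, and the precursor markers went from 3634 to 3946 FPKM in BAT siCtrl d0 to 727.5 to 842.9 FPKM in d3 over the same libraries.

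The largest rise was that of *Mrpl34*, a small basic protein of the large subunit. It was 29.5, 31.5 and 30.5 FPKM in the BAT siCtrl d0 libraries and 190.2, 204.0 and 196.4 FPKM in the d3 libraries, a change of 2.65 (SE 0.04, adjusted p = 3.9e-08 in limma). The groups lay far apart, and the same gene went to 162.0, 156.9 and 168.5 FPKM in BAT siH19 d3 from 24.8, 24.9 and 27.5 FPKM at d0.

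*Mrps22*, a small subunit protein without a bacterial counterpart, was 18.5, 17.5 and 16.8 FPKM at d0 and 102.5, 107.5 and 102.9 FPKM at d3 (change 2.50, SE 0.05, adjusted p = 6.6e-08 in limma). *Mrpl12*, the stalk protein that bacteria call L7/L12 and that contacts translation factors, was 52.7, 51.6 and 50.3 FPKM at d0 and 268.9, 302.5 and 289.6 FPKM at d3 (change 2.45, SE 0.05, adjusted p = 7.5e-08 in limma). In neither gene did any d3 library come near a d0 library. *Mrpl1* rose by 2.31 and *Mrps35*, another protein particular to the mitochondrial small subunit, by 2.27.

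The 3 *Mrps18* paralogs share a bacterial ancestor but occupy different places in the ribosome, *Mrps18a* sitting in the large subunit. In BAT siCtrl *Mrps18a* rose from 36.9 to 85.3 FPKM, *Mrps18b* from 67.7 to 133.4 FPKM and *Mrps18c* from 75.1 to 166.6 FPKM. *Mrps30*, which despite its name is also found in the large subunit, rose from 14.2 to 36.8 FPKM. *Mrps12*, a protein of the decoding centre, rose by 0.83 (SE 0.13, adjusted p = 0.00087 in limma), and *Mrps21* by 1.12. With *Mrps18a* and *Mrps30* counted by structure, the medians were 1.32 for the large and 1.33 for the small subunit.

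Only 3 members were not called in BAT siCtrl, all of the large subunit, and they are named because of this. *Mrpl52* was 159.3, 135.8 and 130.4 FPKM at d0 and 109.6, 123.8 and 125.8 FPKM at d3 (difference -0.24, SE 0.09, adjusted p = 0.045 in limma, below 1.3-fold). *Mrpl54* was 78.2, 68.0 and 65.6 FPKM at d0 and 66.2, 70.5 and 74.3 FPKM at d3 (difference -0.00, SE 0.08, adjusted p = 0.98). The d3 libraries of *Mrpl52* lay below its d0 libraries, whereas those of *Mrpl54* overlapped. *Mrpl33* was 161.7, 156.2 and 150.4 FPKM at d0 and 190.4, 198.0 and 194.4 FPKM at d3 (difference 0.31, SE 0.04, adjusted p = 0.00032), a change just short of 1.3-fold. *Mrpl17*, with a change of 0.39, was the smallest that was called.

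**Figure D2:**
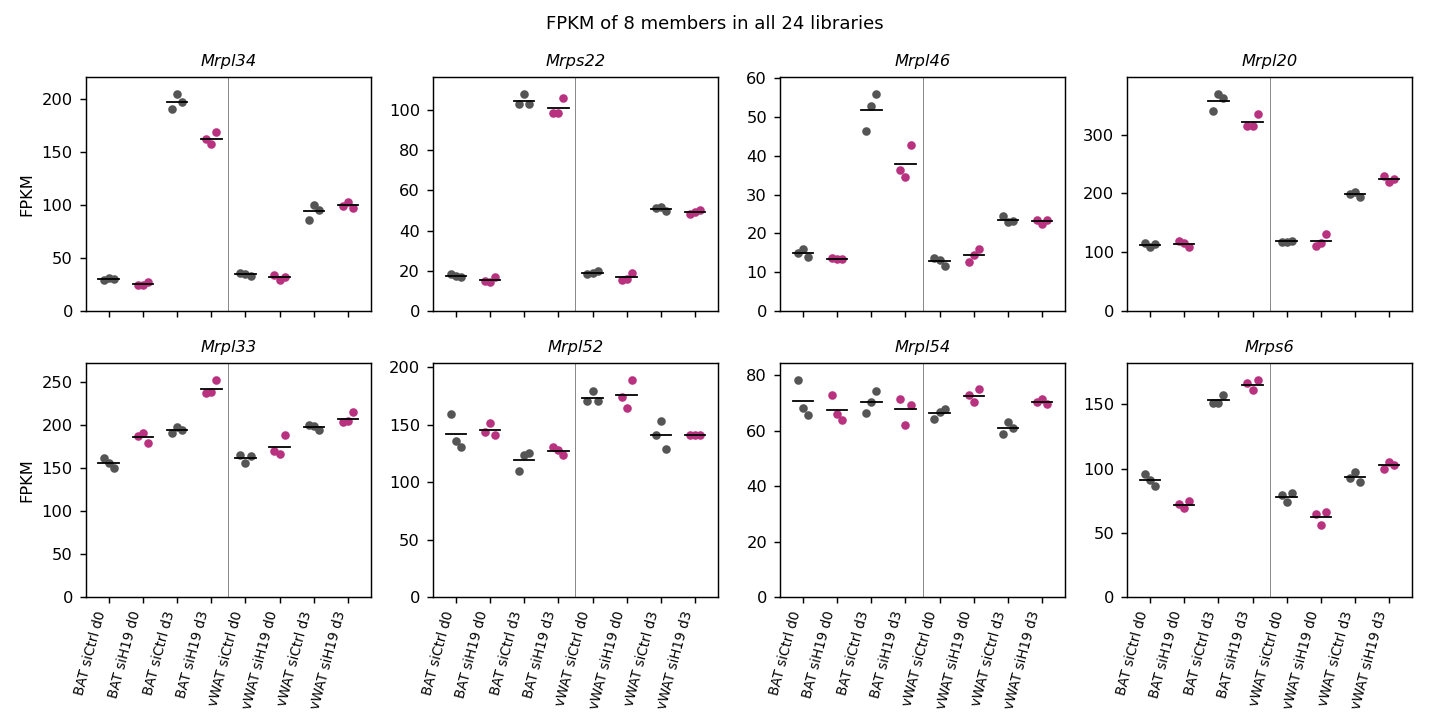
FPKM of 8 members in all 24 libraries, on linear axes that start at 0. Points are libraries, horizontal lines are means of 3, grey is siCtrl and purple siH19, and a vertical line parts BAT from vWAT. Mrpl34, Mrps22, Mrpl46 and Mrpl20 stand highest in BAT d3. Mrpl33 rises less with day than these and is highest in BAT siH19 d3, and Mrpl52 and Mrpl54 show no rise.

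BAT siH19 cells showed a rise as well. Again 74 members rose and 0 fell, where 30.8% of all genes were higher and 29.8% lower, and the median change was 1.25. *Mrps22* (2.62), *Mrpl34* (2.61), *Mrpl12* (2.38), *Mrpl1* (2.35) and *Mrps35* (2.27) led here too. *Mrpl52* (-0.19), *Mrpl54* (0.00) and *Mrpl17* (0.32) were not called, while *Mrpl33* rose by 0.38 (SE 0.04, adjusted p = 0.00020 in limma).

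The start regions of these genes were searched for letters known from promoters of nuclear genes for mitochondria. RefSeq windows on GRCm38.p6, 250 bases before to 50 bases after a transcript start, were found for 68 members. The 4 windows shown are those of the 2 genes with the largest rise and of 2 genes that were not called, with capitals marking matches to the NRF1 letters (GCATGCGC) or the ETS letters bound by GABPA (CCGGAAGT) on either strand. *Mrpl34* lies at chr8:71464676-71464975 (+), *Mrps22* at chr9:98601630-98601929 (-), *Mrpl33* at chr5:31613701-31614000 (+) and *Mrpl52* at chr14:54426659-54426958 (+), each written on the strand of its gene.
Mrpl34: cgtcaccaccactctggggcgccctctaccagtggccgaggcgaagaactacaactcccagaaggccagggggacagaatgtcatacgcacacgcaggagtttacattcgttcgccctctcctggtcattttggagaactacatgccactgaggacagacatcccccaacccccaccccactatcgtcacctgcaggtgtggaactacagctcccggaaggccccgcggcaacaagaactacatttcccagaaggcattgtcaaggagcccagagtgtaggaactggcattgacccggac
Mrps22: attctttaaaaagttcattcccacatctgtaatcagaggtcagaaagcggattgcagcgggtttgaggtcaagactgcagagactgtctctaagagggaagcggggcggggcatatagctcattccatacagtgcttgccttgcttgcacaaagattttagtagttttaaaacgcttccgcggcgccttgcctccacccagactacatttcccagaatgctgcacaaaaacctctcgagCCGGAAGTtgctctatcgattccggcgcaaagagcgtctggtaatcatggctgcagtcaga
Mrpl33: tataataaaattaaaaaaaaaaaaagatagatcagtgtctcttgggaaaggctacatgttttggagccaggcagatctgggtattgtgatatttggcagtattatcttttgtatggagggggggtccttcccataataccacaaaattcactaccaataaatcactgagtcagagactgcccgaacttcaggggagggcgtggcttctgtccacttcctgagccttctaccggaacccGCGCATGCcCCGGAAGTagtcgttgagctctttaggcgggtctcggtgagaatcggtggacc
Mrpl52: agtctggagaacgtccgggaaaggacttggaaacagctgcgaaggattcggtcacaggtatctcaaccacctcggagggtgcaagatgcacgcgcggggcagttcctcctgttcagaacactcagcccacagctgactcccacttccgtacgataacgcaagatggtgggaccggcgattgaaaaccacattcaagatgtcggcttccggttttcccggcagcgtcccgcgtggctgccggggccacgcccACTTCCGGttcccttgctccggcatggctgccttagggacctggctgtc

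*Mrpl34*, with the largest rise, held none of these letters, *Mrps22* held the ETS letters, *Mrpl33* held both, and *Mrpl52* held the ETS letters in reverse just after its start. Over all 68 members, the NRF1 letters stood in 8, the ETS letters in 12 and the YY1 letters (AAGATGGC) in 12. Of the 74 member windows 10.8% held the NRF1 letters, 16.2% the ETS letters and 16.2% the YY1 letters, against 2.7%, 3.9% and 2.7% of all 32851 windows of the same length. The Sp1 letters (GGGCGG) stood in 51.4% of member windows and 35.7% of all, the E-box (CACGTG) in 9.5% and 7.2%, and the ERR letters (TCAAGGTCA) in 0 member windows and 0.4% of all. Counted by gene, where some genes have several windows, the E-box stood in 7.4% of members and 8.1% of all genes.

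The 29 members with at least 1 of the NRF1, ETS and YY1 letters had a median BAT rise of 1.13, and the 39 with a window but none of them 1.36. Members on both sides spanned wide ranges, from -0.24 to 2.50 and from 0.61 to 2.65. A match is a run of letters, and binding was not measured.

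In vWAT siCtrl cells, 62 members rose from d0 to d3 and 0 fell, where 26.3% of all genes tested were higher and 23.9% lower. The median change was 0.61 for the members and 0.01 for all genes. *Mrpl12* (mean 51.9 FPKM at d0 and 148.2 FPKM at d3), *Mrpl34* (1.41), *Mrps22* (1.36), *Mrps35* (1.24) and *Mrpl1* (1.13) led, which are the leading genes of BAT as well. In vWAT siH19 cells 71 rose and 0 fell, against 28.2% and 24.5% of all genes, with a median of 0.77, and *Mrps34* (33.6 to 78.3 FPKM) stood among the first 5.

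*Mrpl34* was 36.4, 34.6 and 33.0 FPKM in vWAT siCtrl d0 and 85.8, 100.2 and 95.5 FPKM in d3. *Mrps22* was 18.7, 18.9 and 19.8 FPKM at d0 and 51.2, 51.8 and 49.5 FPKM at d3. The d0 libraries of both genes lay slightly above those of BAT siCtrl and the d3 libraries far below, with no overlap between d0 and d3. All 3 *Mrps18* paralogs were among the 15 members not called in vWAT siCtrl, with values of 41.1 and 48.7 FPKM for *Mrps18a*, 70.4 and 77.3 FPKM for *Mrps18b* and 92.8 and 117.3 FPKM for *Mrps18c*. *Mrpl52* went the other way, from 170.7, 179.5 and 171.1 FPKM at d0 to 141.1, 153.2 and 128.9 FPKM at d3 (difference -0.30, SE 0.07, adjusted p = 0.0061 in limma), short of the fold threshold.

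The change with day was larger in BAT than in vWAT siCtrl cells for 70 members and smaller for 0, by a test of the difference itself (limma interaction, adjusted p below 0.05, no minimum fold). Among all 14111 genes tested, 24.9% had a more positive and 28.1% a more negative change in BAT. The median difference was 0.70, and 76 of 77 were above 0. *Mrps22* differed by 1.14 (SE 0.06, adjusted p = 1.1e-07), *Mrpl51*, a mitochondria-specific protein of the large subunit, by 1.13, *Mrpl20* by 0.91, *Mrpl34* by 1.24 and *Mrpl15* by 1.21. The brown adipocyte markers went from 11.1 to 14.0 FPKM in BAT siCtrl d0 to 836.7 to 958.7 FPKM in d3, and to 156.1 to 174.4 FPKM in vWAT siCtrl d3; the part of cell makeup in the difference was not tested.

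The 7 members not called were *Mrps24*, *Mrpl33*, *Mrpl52*, *Mrpl54*, *Mrpl58*, *Mrps15* and *Mrps12*. *Mrps24* was 40.6, 42.5 and 42.0 FPKM in BAT siCtrl d0 and 74.0, 80.2 and 90.3 FPKM in d3. In vWAT siCtrl it was 35.7, 38.8 and 43.8 FPKM at d0 and 76.4, 82.6 and 74.7 FPKM at d3. It thus rose in both depots (0.94 and 0.97), and it shares its locus and strand with *Urgcp*, so that reads of the pair may have been divided between them in counting. *Mrpl58*, the ribosome's own peptidyl-tRNA hydrolase, releases peptides from stalled ribosomes. Across the 77 members the BAT and the vWAT change correlated with r = 0.86 and rho = 0.78, without a shared library, as a description over genes that are not independent replicates.

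**Figure D3:**
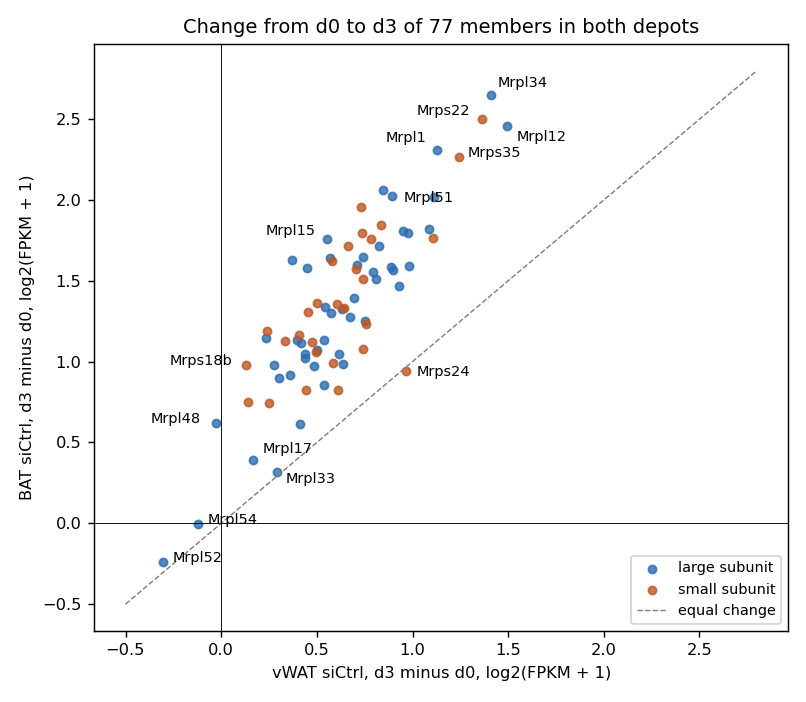
Change from d0 to d3 of each of the 77 members in siCtrl cells on the log2(FPKM + 1) scale, vWAT on the x axis and BAT on the y axis. Blue points are large and orange points small subunit genes, and the dashed line marks equal change. All points but Mrps24 lie above the line, and Mrpl52 and Mrpl54 lie at or below 0 on both axes.

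Before differentiation few members differed by the fold threshold. At d0 in siCtrl cells, 0 members were higher in BAT than in vWAT and 5 were lower, where 10.2% of all genes tested were higher and 21% lower. The median difference was -0.14 for the members and -0.13 for all genes, and after median-of-ratios scaling of the libraries, which moved the median of all genes to -0.02, 1 member was called. In 36 members the BAT libraries lay below the vWAT libraries, against 40.3% of all genes, and in 2 above, against 18.6%. By adjusted p alone 25 members were lower and 1 higher, against 33.2% and 15.4% of all genes. Without replicate 1 of vWAT siCtrl d0 3 members were called.

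All 5 belong to the large subunit. *Mrpl38*, of the central protuberance, was 27.9, 23.9 and 21.8 FPKM in BAT and 33.9, 41.6 and 41.2 FPKM in vWAT (difference -0.64, SE 0.11, adjusted p = 0.0042 in limma). The libraries of the depots did not overlap. *Mrpl48*, also of the central protuberance, differed by -0.44, *Mrpl49* by -0.42, *Mrpl24* by -0.41 and *Mrpl14* by -0.39. On the opposite strand *Mrpl48* overlaps *Rab6a*, *Mrpl49* overlaps *Syvn1*, *Mrpl24* overlaps *Rrnad1* and *Mrpl14* overlaps *Tmem63b*. Those neighbours had medians of 71.5, 38, 9.30 and 22.6 FPKM, and their part in the differences was not tested.

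At d3 in siCtrl cells, 58 members were higher in BAT and 0 lower, where 16.5% of all genes tested were higher and 32.1% lower. The median difference was 0.58 for the members and -0.16 for all genes, and with median-of-ratios scaling it was 0.73 for the large and 0.71 for the small subunit, where the median of all genes was -0.04. *Mrpl15*, a large subunit protein with a bacterial homologue, was 185.3, 207.1 and 201.4 FPKM in BAT and 84.6, 93.5 and 83.9 FPKM in vWAT (difference 1.17, SE 0.06, adjusted p = 8.3e-06 in limma). No BAT library came near a vWAT library. *Mrpl46* (1.10), *Mrps36* (1.09), *Mrpl47* (means of 63.8 and 29.5 FPKM) and *Mrpl1* (35.9 and 16.5 FPKM) followed, *Mrps36* being a protein also known as a component of the alpha-ketoglutarate dehydrogenase complex.

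Among the 19 members not called at d3, *Mrpl33* was 190.4, 198.0 and 194.4 FPKM in BAT and 199.3, 199.1 and 193.8 FPKM in vWAT (difference -0.02, SE 0.03, adjusted p = 0.56 in limma), and *Mrpl52* differed by -0.23. The depots overlapped in *Mrpl33*. At d3 the precursor markers summed to 727.5 to 842.9 FPKM in BAT siCtrl and 1438 to 1539 FPKM in vWAT siCtrl, the macrophage and leukocyte markers to 128.5 to 159.7 FPKM and 477.3 to 520.1 FPKM, and the mesothelial markers to 1.36 to 3.44 FPKM and 39.1 to 45.4 FPKM. Their part in the difference between the depots was not tested. Both comparisons of the depots share their libraries with the comparisons of the days.

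In BAT cells at d3, siH19 against siCtrl, 0 members rose and 1 fell, where 6.39% of all 12500 genes tested were higher and 2.18% lower. The member was *Mrpl46*, of the central protuberance. It was 46.4, 52.9 and 55.8 FPKM in the siCtrl libraries and 36.3, 34.6 and 42.8 FPKM in the siH19 libraries (change -0.44, SE 0.10, adjusted p = 0.032 in limma). The groups did not overlap, but the call was lost, leaving 0, without replicate 2 or replicate 3 of BAT siCtrl d3, without replicate 1 or replicate 2 of BAT siH19 d3 and without the filter on low values. *Mrpl46* overlaps *Mrps11* on the opposite strand, and *Mrps11* was 55.2, 52.7 and 46.1 FPKM in siCtrl and 49.6, 41.9 and 51.2 FPKM in siH19.

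The members as a group lay slightly lower. Their sum was 7863 FPKM in siH19 and 8694 FPKM in siCtrl, a ratio of 0.904, and no siH19 library reached a siCtrl library. The median difference was -0.14, against 0.05 for all genes tested, and with median-of-ratios scaling it was -0.19 in both subunits. In 40 members the siH19 libraries lay below the siCtrl libraries, against 13.1% of all genes, and in 2, *Mrpl33* and *Mrps6*, above, against 24.2%. By adjusted p alone, without a minimum fold, 17 members were lower and 1 higher, against 5.61% and 10.6% of all genes. *Mrpl4* (-0.31, adjusted p = 0.020), *Mrps2* (-0.30, adjusted p = 0.030), *Mrpl35* (-0.29, adjusted p = 0.049) and *Mrpl34* (-0.28, adjusted p = 0.010 in limma) had the largest differences among these after *Mrpl46*.

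*Mrpl33* differed from the rest. It was 190.4, 198.0 and 194.4 FPKM in BAT siCtrl d3 and 237.2, 237.7 and 251.8 FPKM in BAT siH19 d3 (difference 0.32, SE 0.04, adjusted p = 0.0050 in limma, below 1.3-fold). At d0 it was 161.7, 156.2 and 150.4 FPKM in siCtrl and 187.1, 190.3 and 179.0 FPKM in siH19 (difference 0.25, SE 0.04, adjusted p = 0.038). All siH19 libraries were above all siCtrl libraries on both days. Its gene lies on chromosome 5 from 31596935 to 31664384 on GRCm38 in the deposited table, a span that also holds an unnamed gene on the same strand.

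The sums of the marker lists differed between these groups as well. In BAT at d3 the 8 precursor markers summed to 727.5 to 842.9 FPKM in siCtrl and to 1089 to 1209 FPKM in siH19, the brown adipocyte markers to 836.7 to 958.7 FPKM and 500.1 to 569.4 FPKM, and the 8 macrophage and leukocyte markers to 128.5 to 159.7 FPKM and 80.6 to 92.0 FPKM. The 8 adipocyte markers summed to 34133 to 35613 FPKM and 31110 to 33319 FPKM. The 8 proliferation markers summed to 128.0 to 134.3 FPKM and 156.6 to 168.3 FPKM, and the part of these lists in the result was not tested.

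In BAT cells at d0, 0 members were called, where 0.617% of all genes tested were higher and 1.32% lower. The median difference in limma was -0.07. By adjusted p alone *Mrpl33* was higher and *Mrps6* lower, against 1.19% and 1.93% of all genes. *Mrps6* was 95.6, 90.7 and 86.7 FPKM in siCtrl and 72.2, 68.9 and 74.6 FPKM in siH19 (difference -0.34, SE 0.05, adjusted p = 0.031). The groups did not overlap. Without replicate 1 of BAT siH19 d0 1 member was called.

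In vWAT cells no member was called on either day. At d3 0 members were called by limma, where 0.00764% of all genes tested were higher and 0.0229% lower. The median difference was 0.05. At d3 the members summed to 5936 to 6126 FPKM in the siH19 libraries and 5676 to 5891 FPKM in the siCtrl libraries. All siH19 sums thus lay above all siCtrl sums, the opposite side from BAT d3. At d0 0 members were called, where 0.329% of all genes were higher and 1.2% lower, with a median of -0.10.

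**Figure D4:**
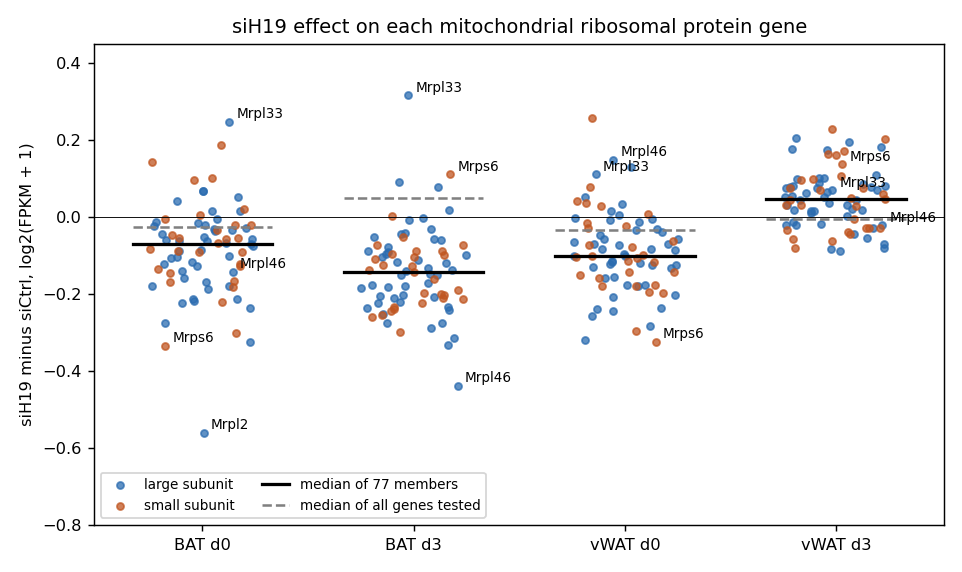
Difference between siH19 and siCtrl of each of the 77 members on the log2(FPKM + 1) scale, by depot and day. Points are genes spread sideways for sight (blue large, orange small subunit), solid lines are medians of the 77 members and dashed lines medians of all genes tested. The median is -0.14 in BAT d3, where Mrpl46 lies lowest and Mrpl33 highest, and 0.05 in vWAT d3.

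The effect of siH19 at d3 differed between the depots for 16 members, 15 of them more negative and 1 more positive in BAT, by the test of the difference itself (limma interaction). Among all 13762 genes tested, 3.52% were more negative and 7.02% more positive. The 15 comprise 6 genes of the large and 9 of the small subunit, the median difference was -0.20 against 0.06 for all genes, and 72 of 77 were below 0. With median-of-ratios scaling 29 were called, 28 of them more negative, and the median of all genes was -0.00. The count ranged from 6 to 20 with a library left out. It was 7 without replicate 2 and 9 without replicate 3 of BAT siCtrl d3, 8 without replicate 1 and 10 without replicate 2 of BAT siH19 d3, 7 without replicate 3 of vWAT siCtrl d3 and 6 without replicate 1 of vWAT siH19 d3.

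*Mrpl20*, a large subunit protein with a bacterial homologue, was 339.3, 368.2 and 362.3 FPKM in BAT siCtrl d3 and 315.2, 314.2 and 334.9 FPKM in BAT siH19 d3. In vWAT d3 it was 199.1, 202.9 and 193.8 FPKM in siCtrl and 230.0, 218.6 and 224.3 FPKM in siH19. The siH19 libraries lay below the siCtrl libraries in BAT and above them in vWAT, and the difference of the effects was -0.32 (SE 0.06, adjusted p = 0.0062 in limma). Among the more negative members *Mrps36* (-0.36), *Mrps5* (-0.23), whose bacterial counterpart lines the mRNA entrance, and *Mrpl34* (-0.36) followed by adjusted p. *Mrpl33* was the member with a more positive effect in BAT, by 0.25 (SE 0.05, adjusted p = 0.011). At d0 0 members differed between the depots, where 0.452% of all genes were more positive and 0.569% more negative.

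Within BAT, the effect of siH19 differed between the days for 2 of 77 members. With 1 in each direction, this count is near or below the share of all genes. *Mrps6* was more positive at d3 (0.45, SE 0.06, adjusted p = 0.0023 in limma), where 7.79% of all genes were, and *Mrps23* more negative (-0.32, SE 0.08, adjusted p = 0.030), where 1.27% were. *Mrps6* went from below siCtrl at d0 to 166.4, 161.1 and 168.7 FPKM in siH19 against 150.8, 151.0 and 157.4 FPKM in siCtrl at d3. The groups were apart on both days, on opposite sides. *Mrps6* overlaps *Slc5a3*, an inositol transporter gene on the same strand, whose mean was 5.33 FPKM in BAT siCtrl d0, 3.77 FPKM in BAT siH19 d0, 6.09 FPKM in BAT siCtrl d3 and 6.35 FPKM in BAT siH19 d3.

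*Mrps23*, a mitochondria-specific protein of the small subunit, was 85.4, 98.2 and 91.3 FPKM in BAT siCtrl d0 and 97.4, 98.4 and 97.7 FPKM in BAT siH19 d0. At d3 it was 270.2, 292.0 and 288.3 FPKM in siCtrl and 247.9, 227.9 and 252.1 FPKM in siH19. The groups overlapped at d0 and not at d3. With median-of-ratios scaling 6 members were called, 1 more positive and 5 more negative. Of the 2 members, 1 was called without replicate 1 or 3 of BAT siCtrl d0, without replicate 2 or 3 of BAT siCtrl d3 and without replicate 1 or 3 of BAT siH19 d0.

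The rest of the mitochondrial translation machinery rose with its ribosome in BAT siCtrl cells. Among all genes tested, 29.9% rose and 35.3% fell from d0 to d3 by the same rule. Of 12 translation factors 11 rose (median 1.31), among them *Gfm1* (2.51), which moves the ribosome along the mRNA, *Gfm2* (2.48), which recycles it, and *Tufm* (2.21), which delivers aminoacyl-tRNAs. Of 20 mitochondrial aminoacyl-tRNA synthetases 19 rose (median 1.16), led by *Fars2* and *Iars2* (1.83). All 5 ribosomal proteins without an *Mrp* symbol rose (median 0.93), *Ptcd3* by 2.39.

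Genes for building the ribosome and for handling its templates followed. Of 22 genes for assembly and rRNA modification 17 rose (median 0.84), led by the helicase *Ddx28* (2.43), the GTPase *Mtg1* (2.08) and the 16S rRNA methyltransferase *Mrm3* (1.81). Of 20 genes for mitochondrial transcription and mRNA handling 17 rose (median 1.19), including *Taco1* (2.54), an activator of COX1 translation, *Lrpprc* (2.11), which stabilises mitochondrial mRNAs, and *Oxa1l* (2.07), which inserts their products into the membrane. None of these lists had a member that fell, where 29.9% of all genes tested rose and 35.3% fell. The medians stand against -0.10 for all genes tested.

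The templates and a client complex rose as well. All 13 mitochondrially encoded mRNAs rose, with changes of up to 3.27 (*mt-Nd2*) and a sum of 9900 FPKM at d0 and 48250 FPKM at d3, and all 35 nuclear complex I subunits rose, with a median of 2.05. Of 69 cytosolic ribosomal proteins 4 rose and 7 fell, against 29.9% and 35.3% of all genes tested, with a median of -0.14. Of 9 regulators of mitochondrial biogenesis the coactivators *Ppargc1b* (3.55) and *Ppargc1a* (2.77) and their partner *Esrra* (1.85) rose, whereas *Pprc1* (-1.37), *Gabpb1* (-1.16), *Myc* (-0.82), *Yy1* and *Nrf1* fell. In vWAT siCtrl the medians were 0.69 for the factors, 0.70 for the synthetases, 0.54 for assembly, 0.39 for transcription and mRNA handling, 1.03 for complex I and 0.07 for the cytosolic ribosomal proteins.

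Under siH19 in BAT at d3, 0 of 12 translation factors (median -0.21) and 0 of 20 synthetases (median -0.19) were called. *Mtg1* (-0.57, SE 0.09, adjusted p = 0.010), *Mrm3* (-0.40, SE 0.09, adjusted p = 0.027), *Lrpprc* (-0.39, SE 0.10, adjusted p = 0.049) and *Ppargc1a* (-0.81, SE 0.13, adjusted p = 0.011 in limma) fell. The mitochondrial mRNAs had a median of -0.06 with 0 called. They summed to 46101 to 50225 FPKM in the siCtrl and 40498 to 42124 FPKM in the siH19 libraries. Complex I had a median of -0.23 with 0 called and 25 lower by adjusted p alone. By these rules 2.18% and 5.61% of all genes were lower. The cytosolic ribosomal proteins had a median of 0.18 with 1 higher, where 6.39% of all genes were. In the test of the difference between depots at d3, 27 of 35 complex I subunits had a more negative effect of siH19 in BAT, where 3.52% of all genes did. By the same test 2 of 12 translation factors (*Gfm1* and *Gfm2*), 2 of 20 genes for transcription and mRNA handling (*Taco1* and *Oxa1l*), 1 of 20 synthetases (*Fars2*) and 1 of 22 assembly genes (*Mrm3*) were more negative, and 0 in these lists were more positive.

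**Figure D5:**
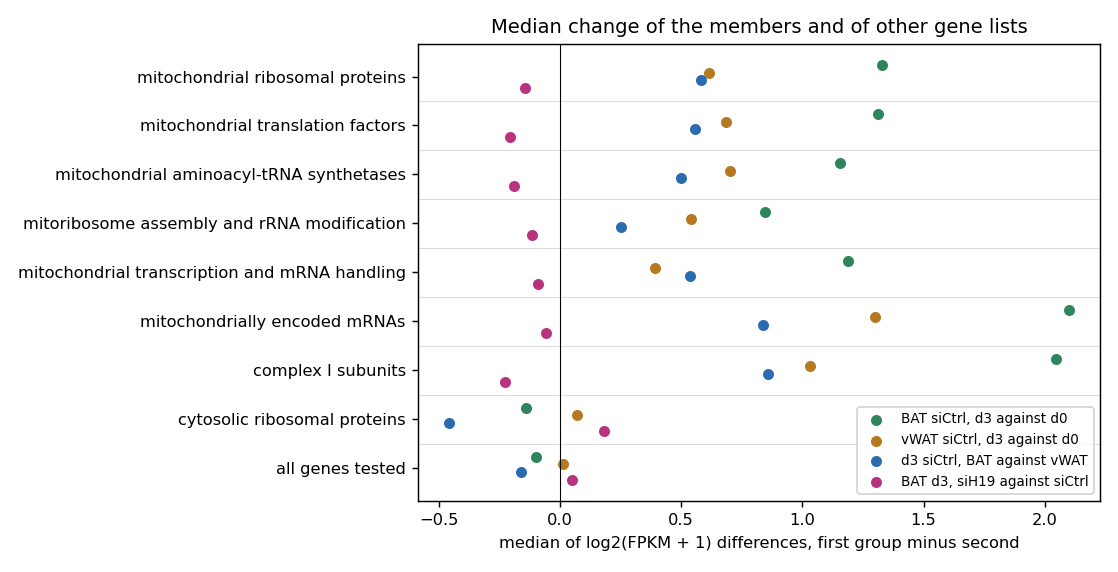
Median difference on the log2(FPKM + 1) scale of the 77 members, of 7 other gene lists and of all genes tested, in 4 comparisons given by colour. The mitochondrial lists lie above 0 with day in both depots and in BAT against vWAT at d3, with 2.05 for complex I and 1.33 for the members in BAT with day. The medians of siH19 against siCtrl in BAT d3 lie between -0.23 and 0.18.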

How the data were processed

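Poly-A RNA of 24 libraries had been sequenced. The labels name a directional kit and paired-end reads, the study's methods a kit not called directional and single-end reads. Per the labels and the study's methods, the authors had mapped reads to GRCm38 with TopHat2 2.0.10 and estimated FPKM with Cufflinks (2.2.1 in the submitters' processing notes, another version in the methods), and they deposited 1 table of FPKM per gene and library. The unit is not named in the table and was taken from the methods. Strand use in counting is not given in the sources used here, and 26 of the 77 members overlap a gene with a median of at least 1 FPKM. Counts were not analysed, so absolute depth is unknown and low genes are less precise than FPKM alone shows. Groups were taken from the labels, in which control titles read siKO while the siRNA field says non-targeting. All 24 sample columns were used (0 unused).

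Here limma 3.58.1 (R 4.3.3, trended empirical Bayes) was run on log2(FPKM + 1) of the libraries of each comparison, for genes of at least 1 FPKM in at least 3 libraries, which understates changes of low genes. Calls needed a Benjamini-Hochberg adjusted p below 0.05 over all genes and, in the 10 pairwise comparisons, 1.3-fold; 4 interactions used adjusted p alone. The script was tested on simulated data. Python 3.11.15, pandas 2.3.3 and matplotlib 3.10.9 were used for sums and figures. Promoter windows were RefSeq's on GRCm38.p6; those of *Mrpl4*, *Mrpl13*, *Mrpl15*, *Mrpl19*, *Mrpl38*, *Mrpl54*, *Mrps28*, *Mrps34* and *Mrps35* were not analysed here.

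Members and lists were chosen with earlier results of these data known. Named were up to 5 called members a direction and comparison by size, up to 5 per interaction by adjusted p, the 3 highest and lowest of each subunit, *Mrpl12*, *Mrps30* and the *Mrps18* paralogs, and up to 3 called genes a list; *Mrpl2*, *Mrpl4*, *Mrpl35*, *Mrps2*, *Mrps12*, *Mrps24* and members not called were named after their values were seen. Libraries were not paired by replicate number (0 of 20 pairs of groups had every correlation above 0.1, range -0.15 to 0.11). With 3 libraries a group, these correlations cannot exclude that libraries of the same number shared a preparation. Alternatives were 2 scalings, a pseudocount of 0.1, no filter, 1 fit of all libraries, the replicate block, added proteins, no minimum fold, subunits by structure and leaving out each library.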

Additional observations from a re-analysis of the deposited data

Results flagged for a closer look

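In 3 sets of tests a difference between effects passed the threshold for members. The change from d0 to d3 differed between BAT and vWAT siCtrl cells for 70 members, among them *Mrps22* (1.14), *Mrpl51* (1.13), *Mrpl20* (0.91), *Mrpl34* (1.24) and *Mrpl15* (1.21), all larger in BAT on the log2 scale. Of all genes tested, 24.9% had a more positive and 28.1% a more negative change in BAT. The effect of siH19 at d3 differed between the depots for 16 members, with differences of -0.32 for *Mrpl20*, 0.25 for *Mrpl33*, -0.36 for *Mrps36*, -0.23 for *Mrps5* and -0.36 for *Mrpl34*. Here 3.52% of all genes were more negative and 7.02% more positive in BAT. Within BAT, the effect of siH19 differed between d0 and d3 for 2 members, *Mrps6* (0.45) and *Mrps23* (-0.32). By the same test 7.79% of all genes were more positive and 1.27% more negative at d3. The count of 1 in each direction among 77 members is near or below these shares. The groups of 3 libraries were too small for a search for single libraries that stand apart.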

How the results depend on the processing

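The number of members called was within 1.5 times the reported number for the 4 comparisons of day, the depot comparison at d3, both vWAT comparisons of siH19, the depot difference of the day change and the depot difference of siH19 at d0 in the alternatives run. Medians kept their sign except in the depot difference of siH19 at d0, where they were 0.02 (large) and 0.01 (small) and changed sign without single libraries (as low as -0.01 and -0.03). In BAT at d3 under siH19 (1 member), the number was 0 without the filter on low values, 18 by adjusted p alone and 0 to 1 with a library left out. In BAT at d0 under siH19 (0 members), it was 1 with all 24 libraries in a single fit, 2 by adjusted p alone and 0 to 1 with a library left out. In the depot comparison at d0 (5 members), it was 1 with either scaling, 26 by adjusted p alone and 3 to 7 with a library left out. For the depot difference of siH19 at d3 (16 members), it was 29 with either scaling, of which 28 were more negative, 9 without the filter, 10 with the replicate block and 6 to 20 with a library left out. For the day difference of siH19 in BAT (2 members), it was 6 with either scaling (5 more negative), 1 without the filter, 4 with all libraries in a single fit and 1 to 3 with a library left out. The replicate block moved no other count by over 1.5 times, and the numbers of the replicates mark no pairing known from the labels. The cause of these shifts was not tested. Absolute depth per library is unknown, so no counting error can be given. A relative depth estimated per library was 0.825 to 0.984 in BAT and 1.02 to 1.17 in vWAT. Depth and depot therefore cannot be told apart, and the part of depth in the depot comparisons was not tested.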

Other observations

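The change from d0 to d3 in BAT siCtrl correlated with the log2 level in vWAT siCtrl d0, libraries that the change does not use, with r = -0.35 and rho = -0.27 across 77 genes, which are not independent replicates. The 20 members lowest there (at most 24.9 FPKM) had a median rise of 1.54 and the 20 highest (59.2 to 221.0 FPKM) of 1.12.

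*Mrpl2*, the homologue of bacterial L2 and chosen here after its values were seen, had the largest difference of the 77 members under siH19 in BAT at d0. It was 103.3, 89.8 and 99.0 FPKM in BAT siCtrl d0 and 78.3, 57.4 and 62.8 FPKM in BAT siH19 d0 (difference -0.56, SE 0.12, adjusted p = 0.061 in limma), groups that did not overlap. In vWAT d0 it was 110.4, 98.9 and 118.8 FPKM in siCtrl and 79.5, 93.3 and 89.2 FPKM in siH19 (difference -0.32, SE 0.09, adjusted p = 0.14), again without overlap, and neither passed the threshold.

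The siH19 differences of the 77 members in BAT d3 and in vWAT d3, which share no library, correlated with r = 0.08 and rho = 0.02 across genes.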
